A study of Zea mays with 6 samples.

Results

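Jasmonates are lipid hormones made from linolenic acid of plastid membranes, and they are known for wound and herbivore responses, growth control and, in maize, the fate of tassel florets. A lipoxygenase first oxygenates the fatty acid, allene oxide synthase (AOS) and allene oxide cyclase (AOC) turn the product into the cyclic precursor OPDA, and OPDA reductases (OPR) in peroxisomes open the way to jasmonic acid. The 7 genes described here were taken as a list of gene IDs for these steps, by a rule that uses no measured value. They are the lipoxygenases ts1/LOX8 (Zm00001d003533), LOX9 (Zm00001d027893) and LOX10 (Zm00001d053675), an allene oxide synthase (Zm00001d034184), an allene oxide cyclase (Zm00001d029594), and the OPDA reductases OPR7 (Zm00001d032049) and OPR8 (Zm00001d050107). They make up 7 of the 45855 genes in the deposited tables, and all 7 passed the filter on low counts.

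RNA was measured in coleoptile-stage seedlings of maize (Zea mays), in 3 samples labelled Fdl1-/- and 3 labelled wild type, each a biological replicate by the series design. FDL1 (fused leaves1) is known as a MYB transcription factor that acts on the cuticle of young maize seedlings. The labels state neither the lesion of the Fdl1 allele nor the genetic background nor how many seedlings were pooled. The libraries held 28660896 to 35793334 expected counts in Fdl1-/- and 26807205 to 36123679 in wild type, and a level of 3 counts in 1 library corresponded to 0.083 to 0.1119 CPM, the unit of counts scaled to library size. The locus of FDL1, taken as Zm00001d022227 from memory of published work, had 4.39, 3.75 and 3.72 CPM in Fdl1-/- replicates 1, 2 and 3, against 5.18, 3.88 and 5.39 CPM in wild-type replicates 1, 2 and 3, so its level alone does not tell the labels apart. Its estimated mean transcript length did not overlap between them, at 1546 ± 6.87 nt in Fdl1-/- and 1613 ± 7.47 nt in wild type (SD, n = 3 each; limma over 12681 genes, unadjusted p = 0.000178, adjusted p = 0.303). The mean Pearson correlation across genes with the rest of its group was 0.944, 0.962 and 0.956 for wild-type replicates 1, 2 and 3. In Fdl1-/- it was 0.974 to 0.977. The wild-type libraries were thus less alike as a group, and replicate 1 had the lowest value. Fold changes and ratios whose direction or size turned on wild-type replicate 1 are also given without it.

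The IDs in the tables belong to the B73 RefGen_v4 annotation, and the gene symbol table at hand, for assembly NAM-5.0, contained 0 of the 43789 IDs of this kind. The names of the genes come from the list that defined them. They could be checked in part by position, because microRNA genes are named in both sources. For 6 of the 7 genes the symbol in the table lay on the same chromosome as, and between, the microRNA genes that flank the ID in the deposited tables. The exception was the allene oxide synthase. Its ID lay between MIR166h and MIR160d, and between these the symbol table placed aos3 and aos4, 2 of its 4 allene oxide synthase genes, whereas aos1 lay on another chromosome. Zm00001d034184 is therefore described as 1 allene oxide synthase gene and not as aos1, and expression at the step as a whole is not analysed here. The same table holds 12 lipoxygenase, 2 allene oxide cyclase and 8 OPR symbols. None of these other genes could be tied to an ID, so their levels are not analysed here, and neither are leaf marker genes that would check the tissue.

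Transcripts of the 7 genes differed widely in level, and 1 lipoxygenase dominated. On the TPM scale, which is set per transcript length so that genes can be compared, LOX10 averaged 625.8 ± 138.3 TPM in Fdl1-/- and 721.9 ± 206.5 TPM in wild type (SD, n = 3 each). LOX10 is known as the lipoxygenase that supplies green leaf volatiles in maize leaves. It ranked between 119 and 201 among the 45855 genes of a library in Fdl1-/- and between 87 and 222 in wild type. Of the summed TPM of the 3 lipoxygenases it made up 96.4% ± 0.632 in Fdl1-/- and 96.3% ± 0.951 in wild type (SD, n = 3 each).

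AOC came next, at 65.3 ± 7.85 TPM in Fdl1-/- and 60.9 ± 28.1 TPM in wild type (SD, n = 3 each). OPR7 followed with 36.9 ± 8.88 TPM in Fdl1-/- and 32.9 ± 3.56 TPM in wild type, and LOX9 with 15.9 ± 0.843 TPM in Fdl1-/- and 16.5 ± 2.56 TPM in wild type (SD, n = 3 each). OPR8, the close paralogue of OPR7 that acts redundantly with it in jasmonic acid synthesis, stood at 13.8 ± 0.646 TPM in Fdl1-/- and 13.1 ± 3.29 TPM in wild type (SD, n = 3 each). The order of the means was the same in both groups. In Fdl1-/- no 2 neighbours in this order overlapped between libraries. In wild type LOX9 overlapped with OPR8, and OPR8 with ts1/LOX8. The lowest levels were those of ts1/LOX8, at 6.99 ± 0.33 TPM in Fdl1-/- and 10.3 ± 2.72 TPM in wild type, and of AOS, at 0.877 ± 0.0808 TPM in Fdl1-/- and 1.03 ± 0.7 TPM in wild type (SD, n = 3 each).

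**Figure D1:**
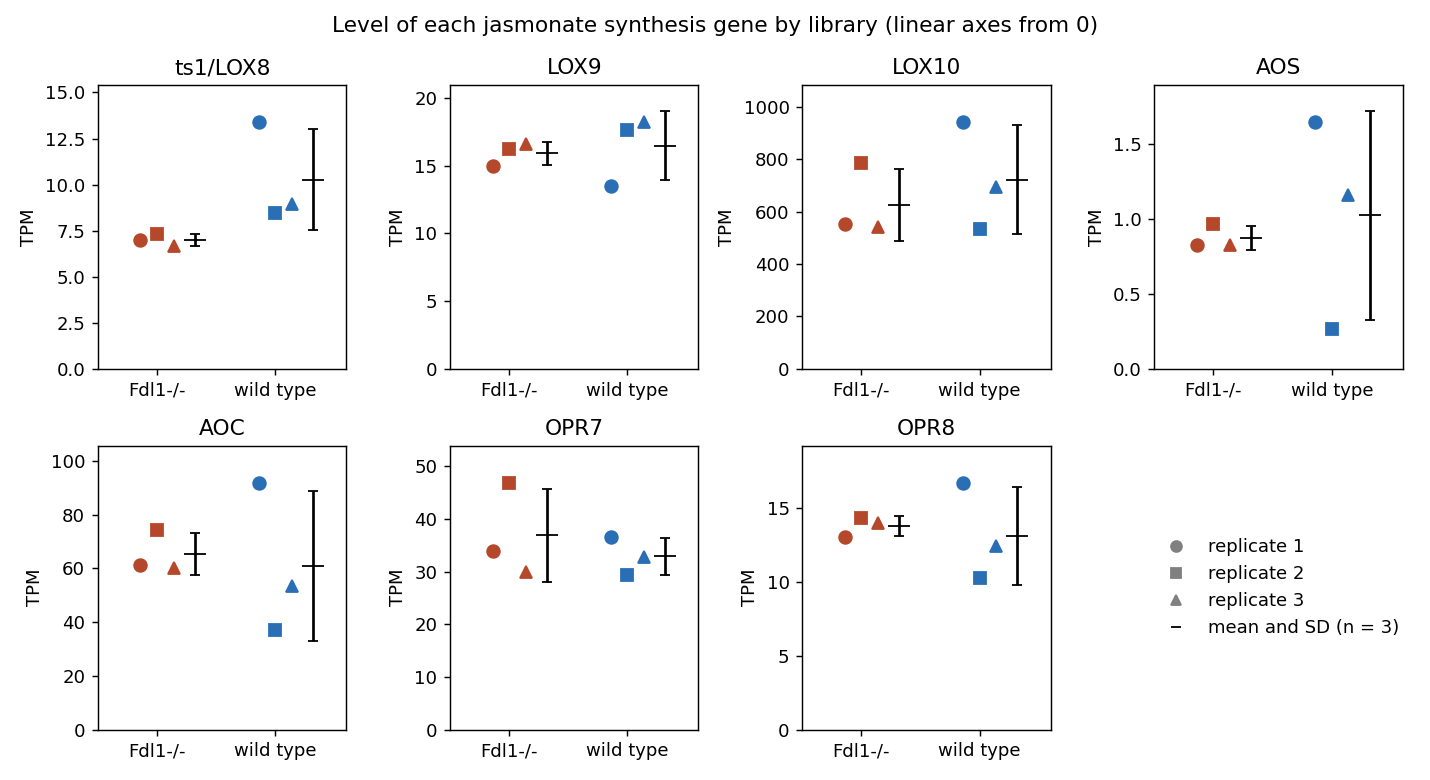
Level in TPM of each of the 7 genes in the 3 Fdl1-/- and 3 wild-type libraries, on linear axes from 0 that differ between panels, with replicates as marker shapes and the mean and SD (n = 3) beside them. LOX10 lay between 541 and 785 TPM in Fdl1-/- libraries and between 532 and 942 TPM in wild-type libraries, and ts1/LOX8 was lower in each Fdl1-/- library than in any wild-type library.

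No gene of the set passed the test for a difference between Fdl1-/- and wild-type seedlings. In edgeR's quasi-likelihood test with Benjamini-Hochberg adjustment over 26098 genes, 0 of the 7 rose and 0 fell at an adjusted p under 0.05, where 1.68% of all tested genes rose and 0.996% fell, 2.68% together. DESeq2 and limma-voom also called 0. At an unadjusted p under 0.05 there was 1 gene of the 7, ts1/LOX8, against 15.8% of those tested. The median log2 fold change was -0.13 for the 7 genes and -0.033 over the 26098 genes. Of the 7, 3 lay above 0 and 4 below, where 54.8% of all tested genes lay below. Simulated libraries of this design, over 26098 genes, called 11 unchanged genes and recovered 33 of 100 changed 2-fold and 73 of 100 changed 4-fold. Changes of these sizes are therefore often missed among genes at large, and this share is not particular to the 7 genes. The 95% intervals of LOX9, AOC, OPR7 and OPR8, at the widest 0.596-fold to 1.78-fold for AOC, left out a 2-fold change. Those of ts1/LOX8, LOX10 and AOS did not. Because whole seedlings were sampled, a lower level in fewer cells and a lower level per cell cannot be told apart.

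The lipoxygenase ts1/LOX8 had the largest estimated difference of the set. Its product is known to be needed for jasmonate in the tassel, where its loss leaves pistils in florets that would otherwise be male. Its level was 13.9, 14.4 and 13.01 CPM in Fdl1-/- replicates 1, 2 and 3, against 28.6, 17.3 and 17.0 CPM in wild-type replicates 1, 2 and 3. The 3 Fdl1-/- libraries lay close together and under all wild-type libraries, and wild-type replicate 1 was well above the other wild-type libraries. The log2 fold change came to -0.61, with an SE of 0.22 and a 95% interval of -1.13 to -0.088 (edgeR, unadjusted p = 0.0278, adjusted p = 0.233). Without wild-type replicate 1 the log2 fold change was -0.32, with an adjusted p of 0.195 in edgeR and 3 Fdl1-/- libraries set against 2 wild-type libraries. The groups did not overlap in CPM for 2 of the 7 genes, ts1/LOX8 and LOX9, beside 21.9% of all tested genes.

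LOX9, a further plastid-type lipoxygenase, was the steadiest gene of the set. It had 25.4, 26.8 and 28.3 CPM in Fdl1-/- replicates 1, 2 and 3, against 29.1, 30.2 and 29.0 CPM in wild-type replicates 1, 2 and 3. All Fdl1-/- libraries were lower, by a small margin. Its log2 fold change came to -0.13, with an SE of 0.098 and a 95% interval of -0.36 to 0.097 (edgeR, adjusted p = 0.61), so a fall past 0.777-fold or a rise past 1.07-fold lay outside the interval. On the TPM scale the groups overlapped, with 14.96, 16.2 and 16.6 TPM in Fdl1-/- and 13.5, 17.7 and 18.2 TPM in wild type. The estimated mean transcript length that enters TPM was 2729 nt in wild-type replicate 1, and 2341 and 2279 nt in wild-type replicates 2 and 3. LOX9 was also the only gene of the 7 with whole expected counts, within 0.005, in all 6 libraries, where the other 6 genes had whole counts in 0 libraries. Fractional counts arise where reads are divided between similar genes, so some reads of those 6 genes were divided, and their share was not measured.

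LOX10 varied more between libraries of one genotype than between the genotypes. It had 861, 1280 and 888 CPM in Fdl1-/- replicates 1, 2 and 3, against 1798, 852 and 1083 CPM in wild-type replicates 1, 2 and 3. Fdl1-/- replicate 2 and wild-type replicate 1 were the high libraries of their groups, and the groups overlapped. The log2 fold change came to -0.30, with an SE of 0.30 and a 95% interval of -1.01 to 0.41 (edgeR, adjusted p = 0.731). Without wild-type replicate 1 it was 0.060, with an adjusted p of 0.919 in edgeR, so the direction rests on that library. At 24732 to 47221 expected counts a library, counting error is small beside this spread.

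The allene oxide synthase gene had the lowest counts of the set and the widest spread between libraries, with a pooled SD within groups of 0.903 on the log2 CPM scale. It had 26.3, 38.6 and 30.9 expected counts in Fdl1-/- replicates 1, 2 and 3, and 52.1, 10.6 and 41.4 in wild-type replicates 1, 2 and 3. The Fdl1-/- libraries were alike, and wild type held both the highest and the lowest library. For the rounded count of 11 in wild-type replicate 2 the exact Poisson 95% interval was 5.49 to 19.7, which does not reach the 38.8 to 68.2 of replicate 1 or the 29.4 to 55.6 of replicate 3, and these intervals cover counting error only. The log2 fold change came to -0.27, with an SE of 0.62 and a 95% interval of -1.72 to 1.18 (edgeR, adjusted p = 0.903). It was 0.33 without wild-type replicate 1 and -0.72 without wild-type replicate 2, so neither direction nor size is settled.

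AOC, the enzyme that sets the stereochemistry of OPDA, had 48.3, 58.9 and 46.8 CPM in Fdl1-/- replicates 1, 2 and 3, against 79.0, 29.8 and 40.9 CPM in wild-type replicates 1, 2 and 3. The Fdl1-/- libraries lay within the range of the wild-type ones. The log2 fold change came to 0.043, with an SE of 0.33 and a 95% interval of -0.75 to 0.83 (edgeR, adjusted p = 0.974). Without wild-type replicate 1 all 3 Fdl1-/- libraries exceeded the remaining wild-type ones. The log2 fold change was then 0.54, with an unadjusted p of 0.0202 and an adjusted p of 0.167 in edgeR. Wild-type replicate 1 was the highest of its group for AOC, so leaving it out raises the estimate. The libraries of OPR8 separated in the same way. The log2 fold change of AOC was -0.22 without wild-type replicate 2, -0.068 without wild-type replicate 3 and -0.068 without Fdl1-/- replicate 2.

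Among the OPDA reductases, OPR7 had 33.0, 45.5 and 29.5 CPM in Fdl1-/- replicates 1, 2 and 3, against 39.1, 28.4 and 31.6 CPM in wild-type replicates 1, 2 and 3. Its log2 fold change came to 0.13, with an SE of 0.20 and a 95% interval of -0.33 to 0.59 (edgeR, adjusted p = 0.844). It was -0.078 without Fdl1-/- replicate 2 and 0.26 without wild-type replicate 1. OPR8 had 15.8, 17.4 and 16.7 CPM in Fdl1-/- replicates 1, 2 and 3, against 22.1, 12.5 and 14.5 CPM in wild-type replicates 1, 2 and 3. For OPR8 the Fdl1-/- libraries were again tightly grouped inside the wild-type range. Its log2 fold change came to 0.023, with an SE of 0.22 and a 95% interval of -0.49 to 0.54 (edgeR, adjusted p = 0.979). It was 0.29 without wild-type replicate 1 and -0.14, -0.044 and -0.012 without wild-type replicates 2 and 3 and Fdl1-/- replicate 2, in that order.

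**Figure D2:**
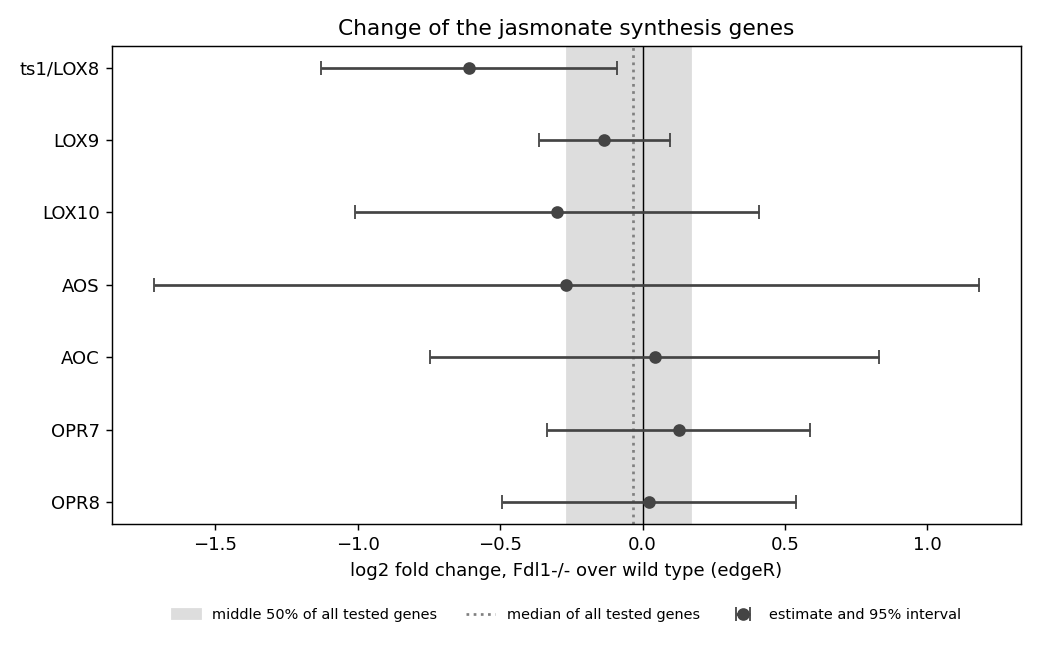
Log2 fold change of each gene, Fdl1-/- over wild type, on the horizontal axis, with the 95% interval from edgeR (3 libraries a group), the middle 50% of all 26098 tested genes as a grey band and their median as a dotted line. Only the interval of ts1/LOX8, -1.13 to -0.088, leaves out 0, before adjustment over all genes, and that of AOS is the widest at -1.72 to 1.18.

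Ratios within a library do not depend on how libraries are scaled, and 4 of them were compared between the genotypes. The log2 ratio of OPR7 to OPR8 counts was 1.06, 1.39 and 0.825 in Fdl1-/- replicates 1, 2 and 3, and 0.827, 1.18 and 1.12 in wild-type replicates 1, 2 and 3. The groups overlapped, with a difference of 0.050 and a two-sided exact permutation p of 1, where 3 against 3 samples cannot go below 0.1. Without wild-type replicate 1 this difference was -0.057. In TPM, OPR7 supplied 72.3% ± 4.23 of the transcripts of this pair in Fdl1-/- and 71.8% ± 2.87 in wild type (SD, n = 3 each). The log2 ratio of ts1/LOX8 to LOX10 averaged -6.17 ± 0.268 in Fdl1-/- and -5.86 ± 0.208 in wild type (SD, n = 3 each, exact permutation p = 0.3). The difference of -0.31 was larger than either SD, while the groups overlapped in counts. With TPM in place of counts the groups did not overlap, and the difference was -0.34 with an exact permutation p of 0.1, the smallest possible. In counts it was -0.37 without wild-type replicate 1, -0.42 without Fdl1-/- replicate 1 (exact permutation p = 0.1) and -0.16 without Fdl1-/- replicate 2. For LOX9 to LOX10 it averaged -5.21 ± 0.324 in Fdl1-/- and -5.33 ± 0.572 in wild type (SD, n = 3 each, exact permutation p = 0.8), and the difference turned from 0.12 to -0.19 without wild-type replicate 1. For OPR8 to AOS, a late against an early step, it averaged 4.08 ± 0.0928 in Fdl1-/- and 4.10 ± 1.05 in wild type (SD, n = 3 each, exact permutation p = 1), and the difference of -0.019 became -0.34 without wild-type replicate 1. No ratio could pass a threshold of 0.05 at this sample size. Summed over the 7 genes the level was 682, 945 and 670 TPM in Fdl1-/- replicates 1, 2 and 3, and 1115, 635 and 820 TPM in wild-type replicates 1, 2 and 3, which follows LOX10.

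Within each genotype most of the genes were highest in the same library, and in wild type most were also lowest in the same library. Fdl1-/- replicate 2 was the highest Fdl1-/- library for 6 of the 7 genes, all but LOX9, beside 32.3% of all tested genes. Wild-type replicate 1 was the highest wild-type library for 6 of the 7, again all but LOX9, beside 40.8% of all tested genes. It was the lowest for 0 of the 7, beside 38.5% of all tested genes. Wild-type replicate 2 was the lowest for 5 of the 7, beside 31.1% of all tested genes. The lowest Fdl1-/- library was replicate 1 for 4 and replicate 3 for 3 of the 7, beside 30.7% and 37.3% of all tested genes. The median deviation of the 7 genes from their group mean was 0.17 in Fdl1-/- replicate 2 and 0.49 in wild-type replicate 1 on the log2 CPM scale. Over all tested genes it was 0.0052 and 0.0058 in these libraries. Scaling of libraries and centring within groups hold that median near 0, so it does not show how far single genes deviated. The labels give no sampling day or batch, and the part that handling, time of day or library preparation may have in this pattern was not tested.

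**Figure D3:**
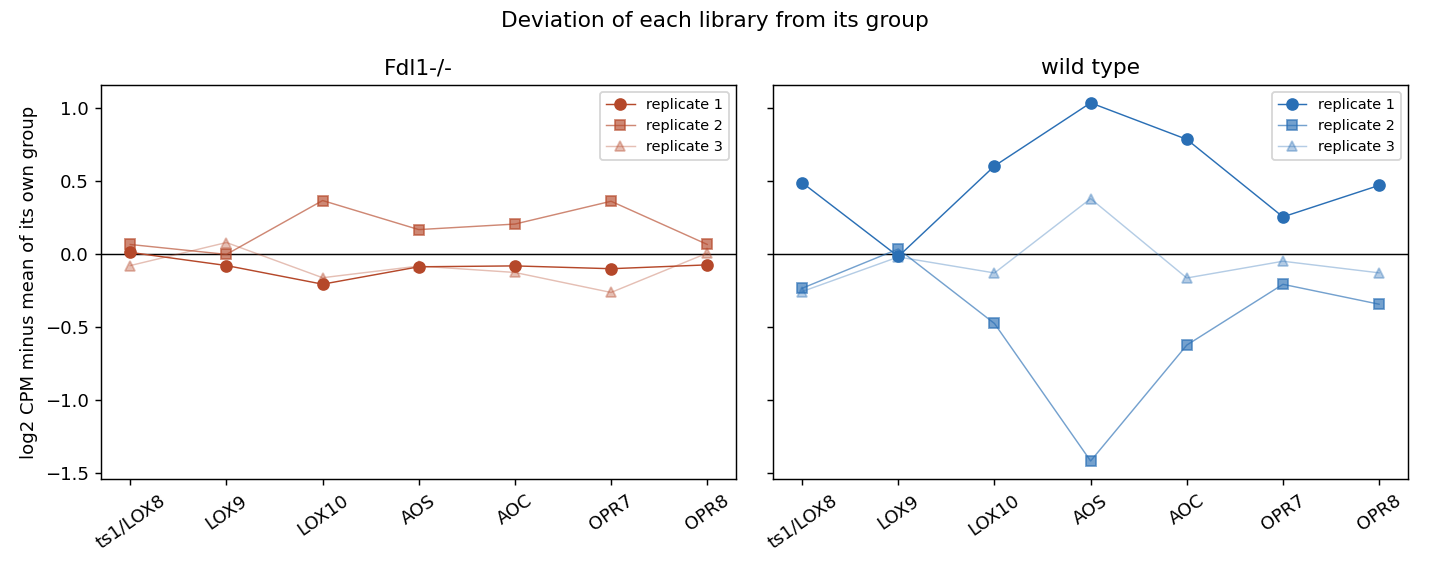
Deviation of each library from the mean of its own group, in log2 CPM, for the 7 genes in Fdl1-/- (left) and wild type (right), with a marker and line per replicate; the lines only join points of a library. Wild-type replicate 1 lies above 0 for all genes but LOX9, at 1.04 for AOS, and wild-type replicate 2 lies under 0 for all but LOX9, at -1.42 for AOS.

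Of the 21 pairs of genes, 17 had a Pearson correlation of log2 CPM above 0 over the 6 libraries, with a median of 0.604, and 0 pairs passed an adjusted p under 0.05. The same count was not made for pairs of other genes. For ts1/LOX8, r with LOX10, AOS, AOC, OPR7 and OPR8 ran from 0.247 to 0.785. Without wild-type replicate 1 and Fdl1-/- replicate 3, the libraries farthest from its median, these values ran from -0.828 to -0.177. With LOX9 the r of ts1/LOX8 was 0.51, and 0.978 without these libraries. The libraries left were wild-type replicates 2 and 3 and Fdl1-/- replicates 1 and 2. Neither gene overlapped between the genotypes in CPM, so this r cannot be told apart from the difference between genotypes. AOC and OPR8 were the closest pair, with r = 0.983 and rho = 0.943 (n = 6, exact permutation p = 0.00556 and 0.0167, adjusted over 21 pairs 0.117 and 0.175). Without wild-type replicates 1 and 2, the libraries farthest from the median, r was 0.89 for this pair. LOX10 had r = 0.833 and rho = 0.771 with AOC (n = 6, exact permutation p = 0.0444 and 0.103, adjusted 0.198 and 0.27), and r = 0.116 without wild-type replicate 1 and Fdl1-/- replicate 2, so that relation rests on these libraries. Among LOX10, AOS, AOC, OPR7 and OPR8, a group of 5 chosen after their values were seen, r ran from 0.604 to 0.983 over 10 pairs, and from -0.452 to 0.89 with the 2 farthest libraries left out of each.

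The genes outside the set whose pattern was most like the mean standardised profile of the 7 were Zm00001d026187 and Zm00001d017583, with r of 0.992 and 0.987 over the 6 libraries. They were the top 2 of 22552 genes with a mean of at least 1 CPM. Of these, 501 or 2.22% had r above 0.9, so such an r was not particular to these 2. The profile stood at 1.32 in wild-type replicate 1 and between -0.743 and 0.297 in the other libraries. Likeness to it therefore rests largely on that library. Zm00001d026187 averaged 2.80 CPM in Fdl1-/- and 3.92 CPM in wild type, with an adjusted p of 0.736 in edgeR. Zm00001d017583 averaged 1.17 CPM in Fdl1-/- and 1.61 CPM in wild type, with an adjusted p of 0.744 in edgeR.

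Transcript choice, as far as the estimated mean transcript length shows it, did not differ past the test for the 4 genes with more than 1 annotated transcript. In limma on log2 length over 12681 genes, 0 of these 4 passed an adjusted p under 0.05, where 2 or 0.0158% of all genes passed. With so few genes passing, this result does not show that transcript choice was equal. The lowest unadjusted p of the 4 in limma was 0.492, for LOX9. LOX10 had a mean length of 2246 ± 67.1 nt in Fdl1-/- and 2290 ± 123 nt in wild type (SD, n = 3 each, limma adjusted p 0.995). OPR7 had 1383 ± 24.6 nt in Fdl1-/- and 1376 ± 27.7 nt in wild type (SD, n = 3 each, limma adjusted p 1). For LOX9 the lengths were 2348 ± 60.6 nt in Fdl1-/- and 2450 ± 244 nt in wild type (SD, n = 3 each, limma adjusted p 0.99), and for ts1/LOX8 they were 2731 ± 19.1 nt in Fdl1-/- and 2740 ± 49.4 nt in wild type (SD, n = 3 each, limma adjusted p 1).

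Across 16 alternative settings for each gene, 0 of the 7 genes passed the threshold in any, and the lowest adjusted p was 0.142, for ts1/LOX8 in DESeq2. The estimates of ts1/LOX8 ran from -0.73 to -0.32 and those of LOX9 from -0.18 to -0.038, all below 0. For both genes the groups do not overlap in CPM, which fixes the direction in most of these settings. The other 5 genes had estimates on both sides of 0 under at least 1 setting.

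**Figure D4:**
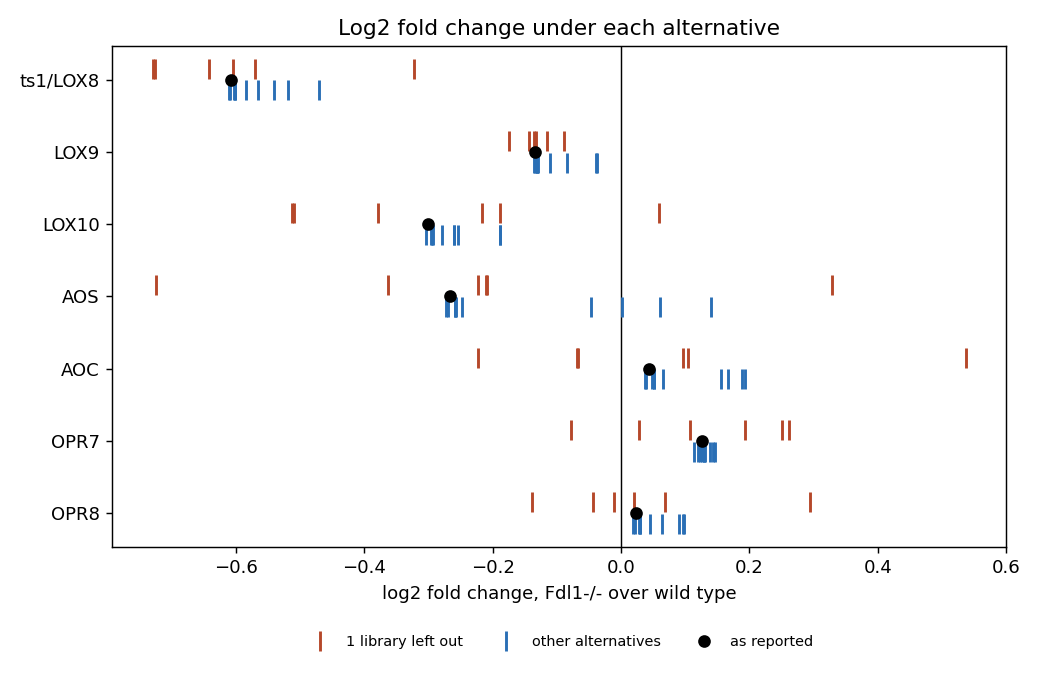
Log2 fold change of each gene, Fdl1-/- over wild type, as reported (black points), with 1 library left out (6 orange ticks) and under the other 10 alternatives (blue ticks). The estimates of AOC run from -0.22 to 0.54 and those of AOS from -0.72 to 0.33, while those of ts1/LOX8 stay between -0.73 and -0.32.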

How the data were processed

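Polyadenylated RNA was sequenced after PureLink extraction and stranded TruSeq library preparation, per the labels' protocols. Per the file headers, the authors deposited RSEM gene tables with expected counts (estimates that divide reads shared by similar genes), TPM, FPKM and transcript lengths. The deposited FPKM values were not used. The submitters' processing notes name Bowtie2, RSEM, DESeq2, limma and B73 RefGen_v4, and their versions and roles are not given in the sources used here.

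Expected counts were rounded. The test was edgeR 4.0.16 under R 4.3.3 (two-sided quasi-likelihood test, TMM, filterByExpr with a minimum count of 10 and a minimum total of 15, no replicate block), with Benjamini-Hochberg adjustment over all genes and a threshold of 0.05. CPM are TMM-scaled, and log2 CPM used a prior count of 2. Ratios had 0.5 added to each count. Lengths were tested with limma 3.58.1. DESeq2 1.42.0, limma-voom, limma on TPM, other filters and scalings, length offsets, leave-one-out fits and a replicate block were alternatives. The fit was tested on simulated data. All 7 genes were named by rule, as were the 2 most alike genes. The rule for the 7 genes uses no measured value, but the genes and lists were chosen with earlier results of these data known. No genome or sequence table of the build was used, so no sequences are given.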

Additional observations from a re-analysis of the deposited data

How the results depend on the processing

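The count of the 7 genes past the threshold was 0 under all alternatives run. Of those among the 7 with a transcript length that varied, 0 passed the length test under any alternative run. Over all genes, 699 changed, and DESeq2 called 1993, the replicate block 122, and fits with 1 library left out 128 to 837 (without mutant replicate 1, 2 or 3 they were 128, 184 or 193, and without wild-type replicate 2 149). Of 112 alternative log2 fold changes of the 7 genes, 12 changed sign, none past the threshold, and the cause was not tested. For AOS it was 0.141 with limma-voom, 0.0606 with limma on log2(TPM + 0.1) and 0.00204 with the replicate block. With 1 library left out, estimates ran from -0.512 to 0.06 for LOX10, -0.724 to 0.329 for AOS, -0.223 to 0.537 for AOC, -0.0782 to 0.262 for OPR7 and -0.138 to 0.294 for OPR8. Differences of log2 ratios ran from -0.0969 to 0.184 for OPR7 to OPR8, -0.191 to 0.374 for LOX9 to LOX10, -0.339 to 0.589 for OPR8 to AOS, and from -0.421 to -0.163 for ts1/LOX8 to LOX10, which kept its sign in all 9 alternatives. Deviations of samples sharing a number correlated at -0.22, 0.134 and -0.184, and those of samples with unlike numbers at -0.18 to 0.273. The labels do not state a pairing, and these few correlations, from deviations centred within each group, cannot decide whether there was one. The block called 0 of the 7 genes. For AOS, the gene with the lowest counts, the spread between wild-type libraries exceeded counting error.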
